A study of Mus musculus with 947 samples.

Results

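6 white blood cell miRNAs, mmu-miR-142a-3p, mmu-miR-142a-5p, mmu-miR-150-5p, mmu-miR-223-3p, mmu-miR-181a-5p and mmu-miR-181b-5p (the prefix mmu marks the mouse), were followed across mouse tissues, ages and parabiosis groups. They were taken by name, and all 6 were present among the 1076 miRNAs of the aging cohort and the 795 miRNAs of the parabiosis cohort. The aging cohort held 769 small RNA libraries of 16 tissues from C57BL/6JN mice of 10 ages between 1 and 27 months, of both sexes up to 21 months and males only at 24 and 27 months. Each combination of tissue and age had 1 to 6 libraries. The parabiosis cohort held 176 libraries of 6 tissues, namely gonadal and mesenteric adipose tissue (GAT and MAT), heart, kidney, limb muscle and liver, from male mice surgically joined so that they share a circulation. Its groups were isochronic young (IY, 3 or 4.5 months), heterochronic young (HY, 4 months, of a C57BL/6 strain that no other group had), isochronic aged (IA, 19 months) and heterochronic aged (HA, 19 months), with 6 to 8 libraries per tissue and group. The IY, IA and HA mice were C57BL/6J or C57BL/6JN, and the study's sources disagree on which of these substrains was the more common, so a mouse's substrain is not settled here. Since the HY mice alone were of their strain, strain cannot be told apart from group in HY against IY and in HA against HY. In both cohorts the circulation was flushed with buffered saline before organs were taken.

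A miRNA is a short RNA that, loaded into an Argonaute protein, pairs through its seed (bases 2 to 8 from the 5′ end) with target mRNAs and lowers their output. miR-142 is made in nearly all cells of the blood-forming lineages. miR-150 accumulates in mature lymphocytes, where it restrains the transcription factor c-Myb. miR-223 marks the myeloid lineage, above all neutrophils and monocytes, and limits their activation. miR-181a tunes antigen receptor sensitivity in developing T cells and shapes B cell development, but the miR-181 family is also made outside the blood, in brain and other solid tissues. In a bulk tissue library, fewer cells of a type and less RNA per cell cannot be told apart.

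The mature sequences show which members share a seed, which is printed in capitals (RefSeq, GRCm38.p6).
miR-142a-3p: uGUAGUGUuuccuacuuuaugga
miR-142a-5p: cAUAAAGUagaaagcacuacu
miR-223-3p: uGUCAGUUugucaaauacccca
miR-181a-5p: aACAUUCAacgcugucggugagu
miR-181b-5p: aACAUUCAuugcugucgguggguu
miR-181c-5p: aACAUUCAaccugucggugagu
miR-181d-5p: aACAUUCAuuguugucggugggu

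miR-181a-5p and miR-181b-5p shared the seed ACAUUCA with the family copies miR-181c-5p and miR-181d-5p, whereas miR-142a-3p, miR-142a-5p and miR-223-3p each had a seed of their own. Counted from 1 at the 5′ end, miR-181a-5p differed from miR-181b-5p by A9U, C10U and A21G over the 23 bases compared, and miR-181b-5p differed from miR-181d-5p by C12U. The authors allowed 1 mismatch in mapping, so reads could be split between miR-181b-5p and miR-181d-5p and their values are uncertain to that extent. Both arms of miR-142a come from the hairpin Mir142 at chr11:87756864-87756927 (plus strand), inside Mir142hg, a long noncoding RNA, and outside its exons, with the hairpin Mir142b on the opposite strand. miR-223-3p comes from Mir223 at chrX:96242817-96242926 (plus strand), within an exon of the noncoding gene F630028O10Rik. The miR-181a-5p sequence is encoded at Mir181a-1 (chr1:137966455-137966541) and Mir181a-2 (chr2:38852735-38852810), which give the same mature sequence. miR-181b-5p is encoded next to them at Mir181b-1 (chr1:137966639-137966718) and Mir181b-2 (chr2:38853830-38853918), all on the plus strand. The copies on chr1 lie inside the noncoding gene Gm4258 and those on chr2 lie antisense to Nr6a1, so the summed level does not tell which locus was used.

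Values are reads scaled to 1 M mapped reads per library (rpmm). A sum of rpmm over miRNAs is not a strict share of mapped reads, since it came to 107% of them in 1 aging library. Mapped reads ran from 2.29 to 167 M in the aging cohort and from 9.20 to 47.6 M in the parabiosis cohort, with a median of 20.1 M in both, so that 1 read was worth at most 0.437 rpmm. The marker miRNAs lay in the labelled tissues: miR-122-5p was highest in liver, miR-1a-3p in limb muscle, miR-124-3p in brain, miR-216a-5p in pancreas and miR-205-5p in skin. By their miRNA profile, however, 10 aging and 5 parabiosis libraries were closer to another tissue than to their own, among them the 3 MAT libraries of 27 months, which were closest to GAT or subcutaneous adipose tissue (SCAT). In 19 libraries the summed miRNA rpmm was under 1/3 of the tissue's median, including kidney replicates 08 and 11 of 3 months (5.74% and 11.7% of 1 M, against a tissue median of 39.5%). Of 47 named results, 5 fell short of their threshold without the libraries of low miRNA share, namely 3 in kidney and 2 in pancreas, and 5 of 43 without those closest to another tissue, namely 1 in bone, 2 in pancreas and 2 in MAT.

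The first question was where each miRNA is found. miR-142a-3p was the most abundant miRNA of the spleen by mean level, holding 12.1% of the miRNA rpmm, and rank 2 in bone marrow. Its median was 22782 rpmm in spleen (lowest library 329, highest 125079), 11592 rpmm in marrow (5813 to 34459) and 4135 rpmm in lung (417 to 15566). Bone (2194 rpmm) and small intestine (1512 rpmm) came next. MAT (914 rpmm), SCAT (1001 rpmm), GAT (734 rpmm), liver (565 rpmm), kidney (507 rpmm) and skin (505 rpmm) formed a run in which no neighbours passed the test. Heart (284 rpmm) stood below them, and limb muscle (129.9 rpmm), brown adipose tissue (BAT, 153 rpmm), brain (78.2 rpmm) and pancreas (71.4 rpmm) closed the order, again with no neighbours that passed. Spleen exceeded marrow by a log2 difference of 1.00 ± 0.17 (SE, adjusted p = 3.5e-08), and marrow exceeded lung by 1.56 ± 0.17 (SE, adjusted p = 4.5e-18), by limma on log2(rpmm + 1) over all miRNAs. Spleen medians were 319-fold those of pancreas.

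Each miRNA's 16 tissues were ordered by mean log2 level, and neighbours in that order were compared. Several organs came from each mouse, but this comparison took every library as independent, so its SE and p-values are uncertain to that extent. Neighbours in such an order are the closest tissues, so a run without a passed step does not show that its ends are alike. Within such runs the mean log2 level fell from 10.1 in MAT to 8.91 in skin for miR-142a-3p. For miR-181a-5p it fell from 12.4 in bone to 11.3 in pancreas. Over the 6 members 29 of 90 neighbouring steps passed an adjusted p under 0.05, beside 22% of such steps over all miRNAs. miR-142a-5p followed the other arm of its hairpin, from 7966 rpmm (145 to 100358) in spleen through 2184 rpmm (379 to 4017) in marrow to 24.7 rpmm (1.46 to 109) in pancreas, and 6 of its 15 steps passed. The ratio of the 3p to the 5p arm was not constant, with a median of 2.47 in spleen and 5.38 in marrow and between 2.96 and 3.91 in the other 14 tissues.

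miR-150-5p, the lymphocyte miRNA, was again highest in spleen, at 5618 rpmm (760.3 to 16769). Marrow (1454 rpmm) and lung (1474 rpmm) did not differ beyond their spread. GAT (981 rpmm), SCAT (862 rpmm) and MAT (672 rpmm) came next, ahead of heart (505 rpmm). BAT (511 rpmm), brain (394 rpmm), bone (383 rpmm), limb muscle (255 rpmm), small intestine (214 rpmm) and kidney (240.4 rpmm) followed with no neighbours that passed. Skin (141 rpmm) and liver (121 rpmm) were lower, and pancreas was lowest at 42.6 rpmm (7.69 to 250.1), 132-fold below spleen. miR-150-5p was thus the least steep of the 4 blood-cell miRNAs, and the adipose depots ranked above bone for it but below bone for miR-142a-3p.

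miR-223-3p, the myeloid miRNA, had a different summit. It was highest in marrow at 10217 rpmm (1858 to 22085), where it held rank 3 of all miRNAs, and in bone at 2057 rpmm (161 to 28607), which like marrow came from femurs and tibiae. Marrow exceeded bone by a log2 difference of 2.14 ± 0.18 (SE, adjusted p = 2.6e-30) and bone exceeded SCAT by 1.97 ± 0.19 (SE, adjusted p = 2.1e-23). SCAT (558 rpmm), lung (534 rpmm), spleen (540.2 rpmm), GAT (429 rpmm), skin (366 rpmm), small intestine (261 rpmm) and MAT (252 rpmm) were neighbours without a passed step. Heart (138 rpmm), liver (106 rpmm), kidney (95.5 rpmm), limb muscle (92.2 rpmm), BAT (76.5 rpmm) and pancreas (59.1 rpmm) made another such run. Brain was lowest at 19.0 rpmm (3.75 to 2475), 538-fold below marrow, with 1 brain library at the top of that range. Spleen, the summit of the other blood-cell members, therefore ranked 5 for miR-223-3p.

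The miR-181 members were not blood-restricted. miR-181a-5p was highest in brain at 21867 rpmm (2155 to 46986) and in lung at 12514 rpmm (2782 to 27636), which did not differ beyond their spread. Bone (5701 rpmm), marrow (5343 rpmm), kidney (5299 rpmm), MAT (4738 rpmm), heart (3954 rpmm), GAT (3515 rpmm), spleen (4047 rpmm), skin (3806 rpmm), small intestine (3135 rpmm), SCAT (3329 rpmm), limb muscle (2462 rpmm) and pancreas (2836 rpmm) formed 1 run with no passed step. BAT (831 rpmm) and liver (642 rpmm, 282 to 1362) closed the order, 34.1-fold below brain at the median of liver. miR-181b-5p ran from 4585 rpmm (555 to 14465) in brain through 1529.9 rpmm in lung and 1020.1 rpmm in marrow to 85.3 rpmm in liver. It ranked lower in spleen (385 rpmm, rank 14 of 16) than miR-181a-5p did (rank 9), and the median ratio of miR-181a-5p to miR-181b-5p was 10.1 in spleen, the widest of the 16 tissues, and 3.60 in limb muscle, the narrowest.

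**Figure D1:**
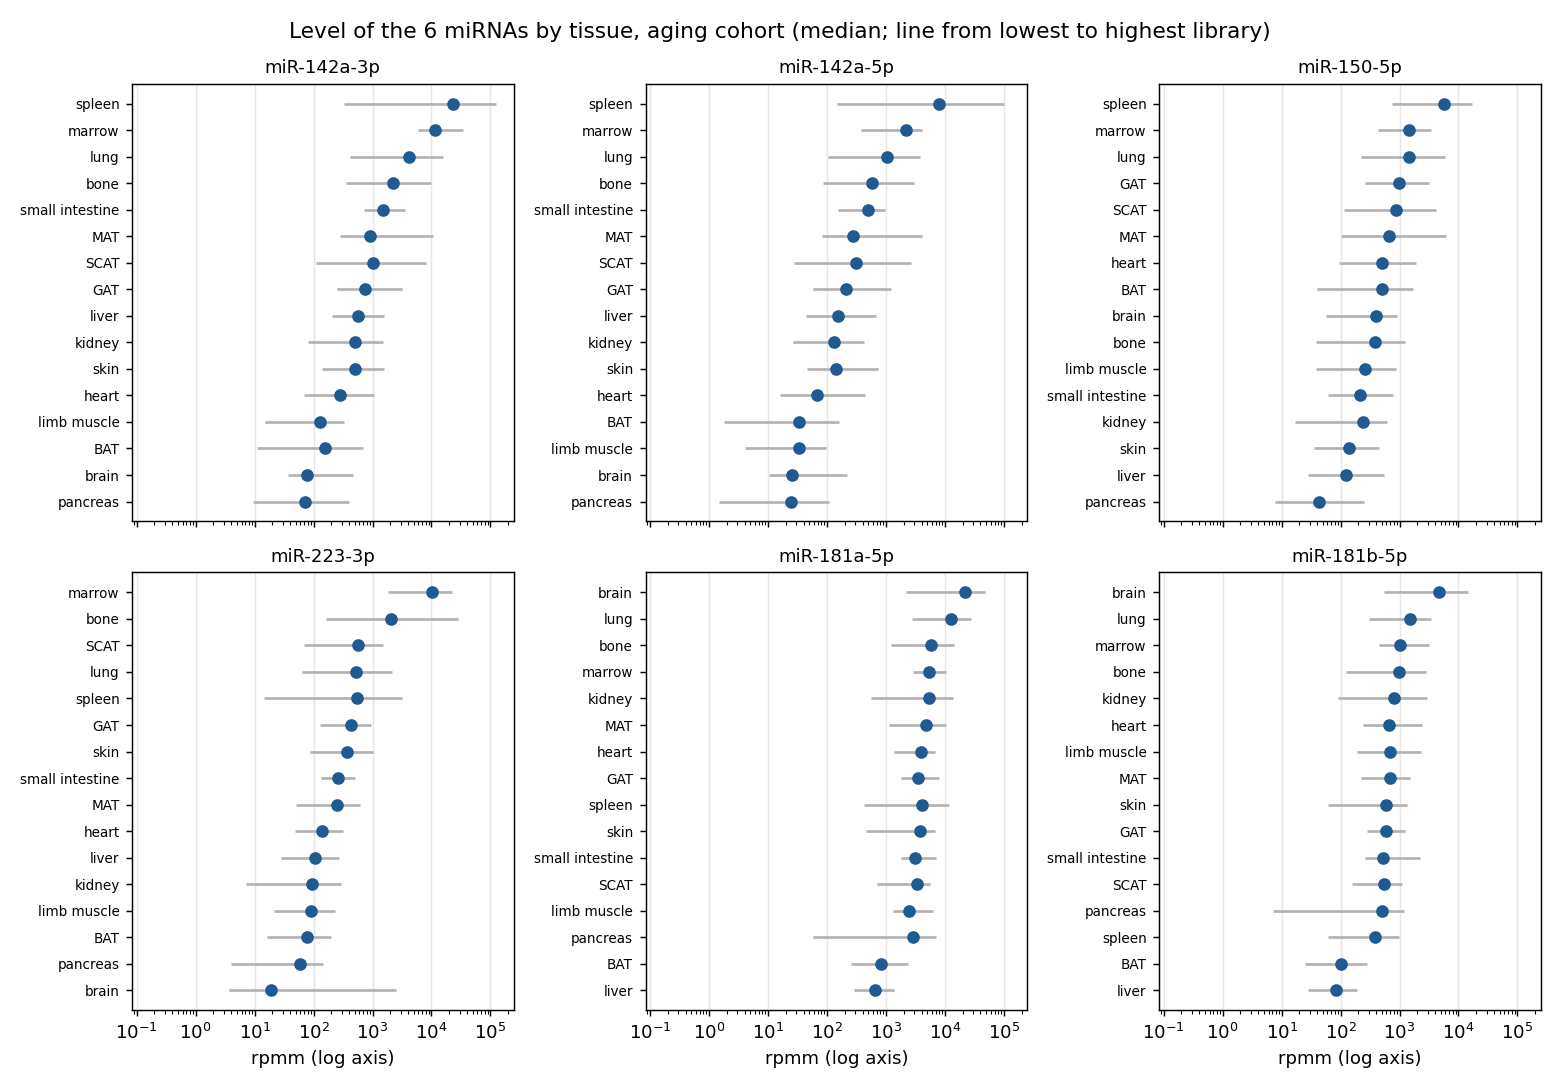
Level of the 6 miRNAs in the 16 tissues of the aging cohort, in rpmm on a log axis, with a point at the median and a line from the lowest to the highest library, tissues ordered by mean log2 level. Both arms of miR-142a and miR-150-5p peaked in spleen, miR-223-3p in marrow and the miR-181 members in brain.

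Set against all 502 miRNAs with a tissue mean of at least 10 rpmm in some tissue, whose median span between the highest and lowest tissue mean was 4.34 on the log2 scale, the blood-cell members spanned widely, with 8.23 for miR-142a-3p, 8.73 for miR-142a-5p, 6.68 for miR-150-5p and 8.83 for miR-223-3p. miR-181a-5p (4.58) and miR-181b-5p (5.28) were nearer to the median. As a description over the 16 tissue means, whose libraries differ in depth and composition, the profile most like miR-142a-3p was that of miR-15b-3p (Pearson's r = 0.95), followed by miR-18b-5p (0.94) and miR-15b-5p (0.93). For miR-142a-5p these were miR-18b-5p (0.93), miR-15b-3p (0.92) and miR-106a-5p (0.89). For miR-150-5p they were miR-669a-5p and miR-669p-5p (0.94 each, with identical values) and the opposite arm miR-150-3p (0.93). miR-223-3p was most like its opposite arm miR-223-5p (0.98), then miR-15b-5p (0.92) and miR-15b-3p (0.90). The profile of miR-181a-5p was most like those of miR-181a-1-3p (0.94), miR-181c-5p (0.87) and let-7i-5p (0.85), and that of miR-181b-5p most like miR-181a-1-3p (0.86), miR-181d-5p (0.83) and miR-181c-5p (0.83). Among the members, r was 0.99 between the arms of miR-142a, 0.96 between miR-181a-5p and miR-181b-5p, 0.80 between miR-142a-3p and miR-223-3p, 0.74 between miR-142a-3p and miR-150-5p, 0.53 between miR-150-5p and miR-223-3p and 0.24 between miR-142a-3p and miR-181a-5p.

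The blood-cell members also moved together from library to library within most tissues, which differs from sharing a tissue profile. With miR-142a-3p on log2(rpmm + 1), 96 correlations were computed over 31 to 56 libraries each, with 100000 shuffles and Benjamini-Hochberg adjustment over the 96. miR-142a-5p passed an adjusted p under 0.05 in 15 of 16 tissues (median r 0.77), miR-150-5p in 14 (median r 0.62), miR-223-3p in 12 (median r 0.51), miR-181a-5p in 7 (median r -0.02) and miR-181b-5p in 6 (median r 0.14). By Spearman's rho the corresponding numbers were 16, 14, 12, 7 and 8. The red cell miRNA miR-451a passed in 10 tissues (median r 0.37), and depth and the miRNA share of a library are common to both values of each point. Such correlations were not computed for further miRNAs, so no share over all miRNAs stands beside these counts. They do not show that the members vary together more than other miRNAs do. In kidney r with miR-142a-3p was 0.77 for miR-142a-5p (rho 0.77), 0.65 for miR-150-5p (rho 0.61) and 0.64 for miR-223-3p (rho 0.59), each with an adjusted permutation p of at most 3.3e-05 over 51 libraries. Leaving out the 2 kidneys with the most extreme miR-142a-3p gave 0.72, 0.53 and 0.48. In spleen miR-142a-3p had r -0.03 with miR-150-5p (adjusted permutation p = 0.87) and -0.08 with miR-223-3p (adjusted permutation p = 0.64) over 55 libraries. Leaving out the 2 farthest spleens gave -0.40 and -0.66, so those near-zero values rested on 2 libraries, and rho over all spleens was -0.19 for miR-150-5p and -0.59 for miR-223-3p (adjusted permutation p = 8.3e-05). In MAT r was -0.37 for miR-181a-5p (adjusted permutation p = 0.019, rho -0.29) and -0.39 for miR-181b-5p (adjusted permutation p = 0.011, rho -0.32), opposite in sign to miR-142a-5p (0.93).

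**Figure D2:**
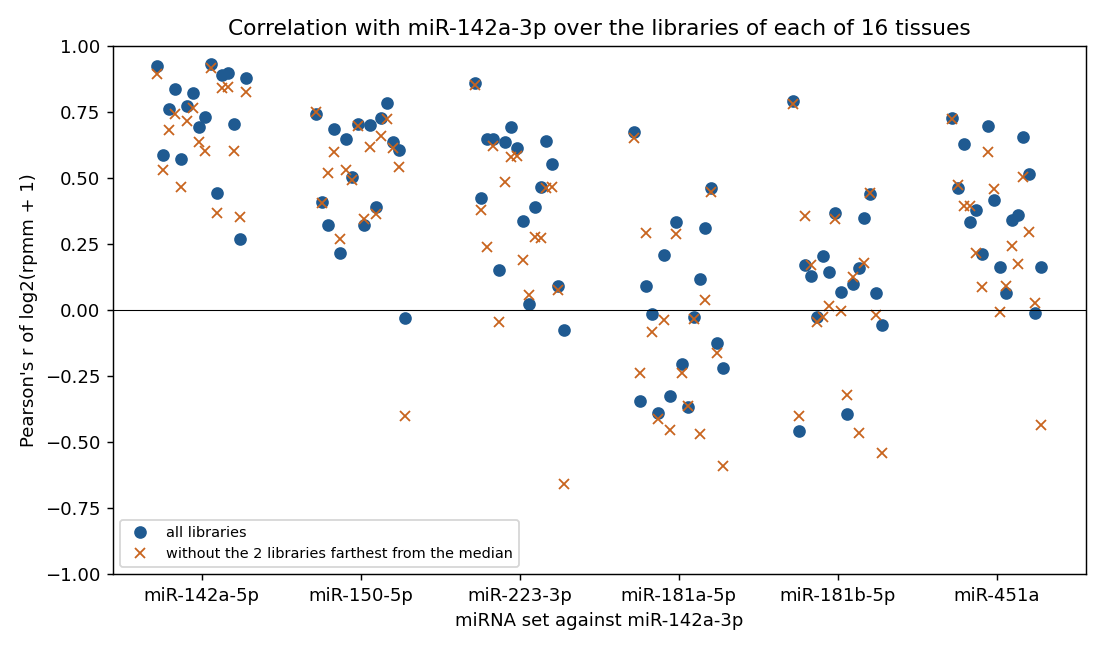
Pearson's r of log2(rpmm + 1) with miR-142a-3p (vertical axis) for the other 5 members and the red cell miRNA miR-451a, 1 point per tissue, over all libraries (points) or leaving out the 2 with the most extreme miR-142a-3p (crosses). Values for miR-142a-5p, miR-150-5p and miR-223-3p lay mostly above 0, and those of the miR-181 members lay on both sides of it.

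The next question was which members change with age. A Spearman's rho of rpmm with age in months above 0.5 or below -0.5 was called. Of the 96 pairs of a member and a tissue, 10 were above 0.5 and 0 were below -0.5, where 3.75% and 4.31% of all pairs of a miRNA and a tissue were. All 10 were of miR-142a, miR-150-5p or miR-223-3p, and they lay in kidney, MAT, BAT, liver, bone and GAT. By the permutation p alone (adjusted within the tissue) 25 pairs passed, 19 of them higher and 6 lower with age, beside 18% over all pairs. The direction of the count depended on the scaling: relative to miRNA reads alone 4 pairs were above 0.5 and 5 below -0.5, and with median-ratio scaling 7 were above and 1 below. The shares over all pairs are those of the rpmm values, so whether other miRNAs shift likewise under these scalings is not shown. With the mean of each plate of the deposited annotation removed, 5 pairs remained above 0.5. They were miR-142a-3p, miR-142a-5p and miR-223-3p in kidney, miR-142a-5p in liver and miR-150-5p in MAT.

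**Figure D3:**
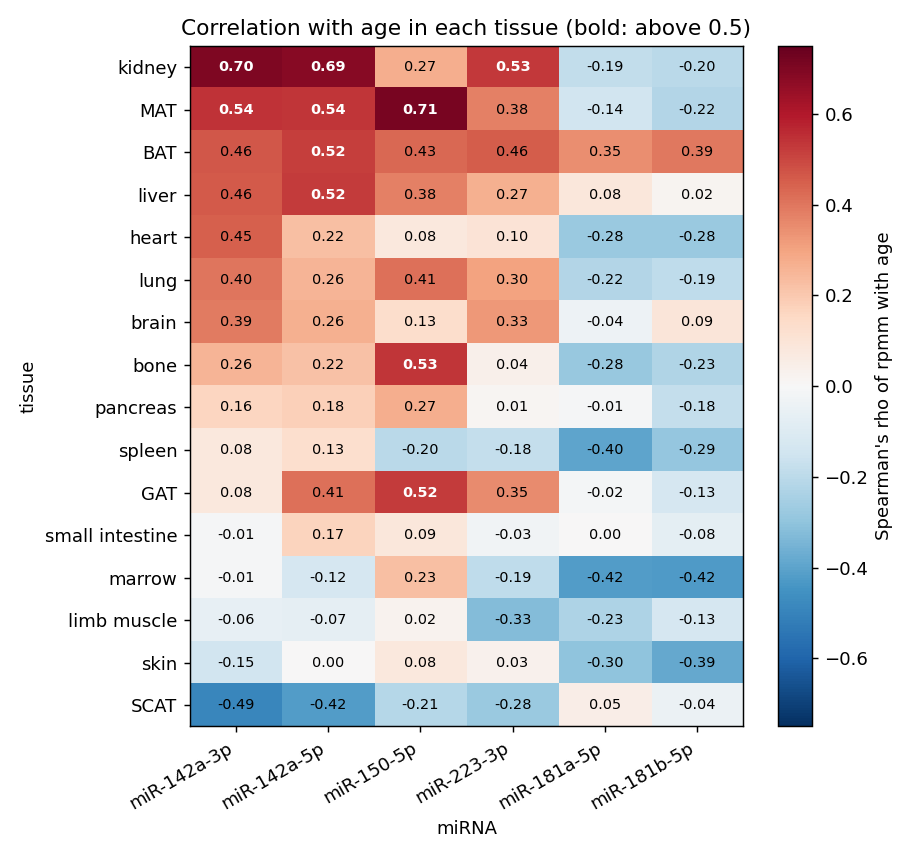
Spearman's rho of rpmm with age for the 6 miRNAs (columns) in the 16 tissues (rows), on a colour scale from blue (negative) to red (positive), with values above 0.5 in bold. The highest values, 0.71 for miR-150-5p in MAT and 0.70 for miR-142a-3p in kidney, contrast with -0.49 for miR-142a-3p in SCAT.

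In kidney 3 members were higher with age. rho was 0.70 (adjusted permutation p = 0.0014, n = 51) for miR-142a-3p, 0.69 (adjusted permutation p = 0.0014, n = 51) for miR-142a-5p and 0.53 (adjusted permutation p = 0.0038, n = 51) for miR-223-3p, while miR-150-5p (0.27), miR-181a-5p (-0.19) and miR-181b-5p (-0.20) were not called. The kidney libraries held 80.7, 166, 194, 344 and 507 rpmm of miR-142a-3p at 3 months, 792, 867, 905, 928 and 986 rpmm at 21 months and 802, 974, 1315 and 1457 rpmm at 27 months. No library of 21 or 27 months overlapped those of 3 months, though the 24-month libraries (350.1, 447, 559.6 and 618 rpmm) did. Against 3 months the log2 change of miR-142a-3p was 1.91 ± 0.43 (SE, adjusted p = 0.012) at 18 months, 2.05 ± 0.45 (SE, adjusted p = 0.015) at 21 months and 2.36 ± 0.48 (SE, adjusted p = 0.0033) at 27 months by limma. miR-142a-5p rose by 2.01 ± 0.43 (SE, adjusted p = 0.0097) at 18 months and 2.28 ± 0.47 (SE, adjusted p = 0.0033) at 27 months, and miR-223-3p by 2.50 ± 0.65 (SE, adjusted p = 0.026) at 27 months, where its libraries held 115, 180.2, 195 and 207 rpmm against 7.12, 10.8, 36.4, 81.4 and 84.0 rpmm at 3 months, without overlap.

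Other miRNAs were higher in these kidneys too. The median log2 change of all miRNAs in kidney was 0.80 at 21 months, and the lowest 3-month value of miR-142a-3p came from replicate 08, a library of low miRNA share. Without replicate 08 the 21-month change of miR-142a-3p was 1.70 (adjusted p = 0.20), and relative to miRNA reads it was 1.00 (adjusted p = 0.30). It was also lost without replicate 11 of 3 months or replicate 38 of 21 months, and the 18-month calls of both arms of miR-142a were lost without replicate 08 of 3 months or replicate 16 of 18 months. That of miR-223-3p at 27 months was lost without any 1 of 5 libraries, replicates 08 and 11 of 3 months among them. Without the libraries of low miRNA share the 27-month change was 1.77 (adjusted p = 0.029) for miR-142a-3p and 1.98 (adjusted p = 0.020) for miR-142a-5p. Relative to miRNA reads these were 1.34 (adjusted p = 0.10) and 1.27 (adjusted p = 0.21), and neither passed with median-ratio scaling. The correlation of miR-142a-3p with age held under the settings given here, with rho 0.70 without the libraries of low miRNA share, 0.58 relative to miRNA reads, 0.63 in males and 0.74 with plate means removed. For miR-142a-5p it was 0.48 relative to miRNA reads, just under the threshold, and for miR-223-3p 0.63. The summed red cell miRNAs of kidney ranged over 201 to 634 rpmm at 3 months and 128 to 1219 rpmm at 21 months, and the summed endothelial miRNAs over 1788 to 10832 rpmm and 5675 to 11480.3 rpmm. Of the markers of other tissues, the brain miRNA miR-124-3p was also higher with age in kidney (rho 0.59). The other brain miRNA of the list, miR-9-5p, did not pass as higher there by adjusted permutation p. The part of these markers in the result was not tested.

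In liver, miR-142a-5p had rho 0.52 (adjusted permutation p = 0.00075, n = 52) and miR-142a-3p 0.46 (adjusted permutation p = 0.0053, n = 52). Liver libraries ranged over 44.1 to 97.6 rpmm around a median of 76.1 rpmm of miR-142a-5p at 3 months, over 147 to 671 rpmm around a median of 198 rpmm at 18 months and held 190.2, 276, 287 and 372 rpmm at 27 months, so neither of these later ages overlapped 3 months. The log2 change against 3 months was 1.40 ± 0.39 (SE, adjusted p = 0.018) already at 6 months, 1.69 ± 0.39 (SE, adjusted p = 0.0080) at 18 months, 1.40 ± 0.41 (SE, adjusted p = 0.019) at 21 months and 1.88 ± 0.43 (SE, adjusted p = 0.00082) at 27 months. At 27 months miR-142a-3p (1.19 ± 0.42 SE, adjusted p = 0.029) and miR-223-3p (1.33 ± 0.46 SE, adjusted p = 0.027) were higher as well, but the first was lost without any 1 of 6 libraries and the other without any 1 of 4 (adjusted p up to 0.13 and 0.11). The 6- and 21-month calls of miR-142a-5p were lost without replicate 14 of 3 months, and the latter also without replicate 04, 10 or 32 of 21 months. The listed red cell miRNA miR-486a-5p (rho 0.35) and the pancreas miRNA miR-375-3p (rho 0.44) passed by adjusted permutation p in liver too, and their part in the result was not tested. The red cell miRNA miR-451a did not pass there (rho 0.11, adjusted permutation p = 0.65). At the median miR-486a-5p was about as high in heart (27.0 rpmm) as in marrow (28.9 rpmm). Relative to miRNA reads rho of miR-142a-5p was 0.47. Other miRNAs were higher in these livers too, with a median log2 change of all miRNAs of 0.38 at 21 and 0.55 at 27 months. Over 12 alternative settings the 27-month changes were as low as 0.44 for miR-142a-3p and 0.59 for miR-223-3p. Their adjusted p by limma or edgeR reached 0.57 and 0.44. The miR-142a-5p call held in all 12 settings at 18 months, in 11 at 27 months and in 9 at 6 and at 21 months.

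MAT held the highest correlation of any member, rho 0.71 (adjusted permutation p = 0.00054, n = 47) for miR-150-5p. Its median was 183 rpmm in the 3 libraries of 1 month, and the others held 306, 318, 396, 428 and 479 rpmm at 3 months, 459.7, 766, 1218, 1873 and 3276 rpmm at 21 months and 1727, 4128 and 6055 rpmm at 27 months. The 27-month libraries lay above every younger group's median, but those of 21 months overlapped 3 months. The log2 change was 1.67 ± 0.47 (SE, adjusted p = 0.039) at 21 months, which was lost without any 1 of 6 libraries (adjusted p up to 0.18), and 3.20 ± 0.55 (SE, adjusted p = 3.9e-05) at 27 months. At 27 months miR-142a-3p (3.66 ± 0.69 SE, adjusted p = 0.00013), miR-142a-5p (4.04 ± 0.87 SE, adjusted p = 0.00063) and miR-223-3p (1.13 ± 0.45 SE, adjusted p = 0.048) were higher too, with 3 libraries that all stood closer to another adipose depot and so give no value when such libraries are left out. Leaving out libraries closest to another tissue also drops replicate 54 of 9 months. rho of miR-150-5p stayed at 0.69 in that setting and at 0.68 without the 24- and 27-month libraries. rho was 0.54 for miR-142a-3p (adjusted permutation p = 0.0024, n = 47) and 0.54 for miR-142a-5p (adjusted permutation p = 0.0024, n = 47). Without libraries closest to another tissue these fell below 0.5, to 0.48 and 0.498, and without the 24- and 27-month libraries they were 0.504 and 0.488. Over all MAT libraries the pancreas miRNAs miR-216a-5p (rho 0.54) and miR-217-5p (rho 0.58) were higher with age, and the brain miRNAs miR-124-3p (rho -0.44) and miR-9-5p (rho -0.42) lower. Their part in the result was not tested.

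In GAT, another abdominal depot, miR-150-5p had rho 0.52 (adjusted permutation p = 0.0092, n = 37), from a median of 1055 rpmm at 3 months to 1854 rpmm at 21 months, and rho was 0.38 without the 1-month libraries. In bone it had rho 0.53 (adjusted permutation p = 0.0021, n = 48), and the 5 libraries of 21 months (417, 450.1, 515, 608 and 1241 rpmm) lay above all 6 of 3 months (66.2 to 282 rpmm around a median of 199 rpmm), a log2 change of 1.85 ± 0.46 (SE, adjusted p = 0.025). The call was lost without replicate 37, the highest of them and a library closest to SCAT (adjusted p = 0.13), and without replicate 42 or 53 of 3 months, and rho was 0.32 without the 1-month libraries. Bone also showed higher levels with age of the muscle miRNAs miR-133a-3p (rho 0.62) and miR-1a-3p (rho 0.52), of the skin miRNA miR-203-3p (rho 0.59) and of the endothelial miR-126a-5p (rho 0.46), and their part in the result was not tested. The other endothelial arm, miR-126a-3p, did not pass in bone by adjusted permutation p. In BAT miR-142a-5p had rho 0.52 (adjusted permutation p = 0.029, n = 31) but 0.44 relative to miRNA reads, over groups of 1 to 5 libraries. The endothelial miR-126a-3p (rho 0.50) and miR-126a-5p (rho 0.46), the muscle miR-133a-3p (rho 0.46) and miR-1a-3p (rho 0.45) and the skin miR-203-3p (rho 0.48) passed by adjusted permutation p in BAT as well, and their part in the result was not tested.

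In SCAT the sign was negative. miR-142a-3p had rho -0.49 (adjusted permutation p = 0.0082, n = 44) and miR-142a-5p -0.42 (adjusted permutation p = 0.024, n = 44), with medians of miR-142a-3p of 1781 rpmm at 3 months, 2037 rpmm at 9 months, 841 rpmm at 12 months and 513 rpmm at 21 months. Replicate 16 of 3 months, a library closest to bone, held 108 rpmm, the lowest of the tissue. Without libraries closest to another tissue rho was -0.58 for miR-142a-3p and -0.51 for miR-142a-5p, past the threshold, and in males it was -0.57 and -0.56. The immune cell miRNAs miR-342-3p (rho -0.53) and miR-342-5p (rho -0.52) were lower with age in the same libraries. They are arms of the same hairpin and the only 2 of 116 pairs of the immune cell list below -0.5, where 13 were above 0.5.

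**Figure D4:**
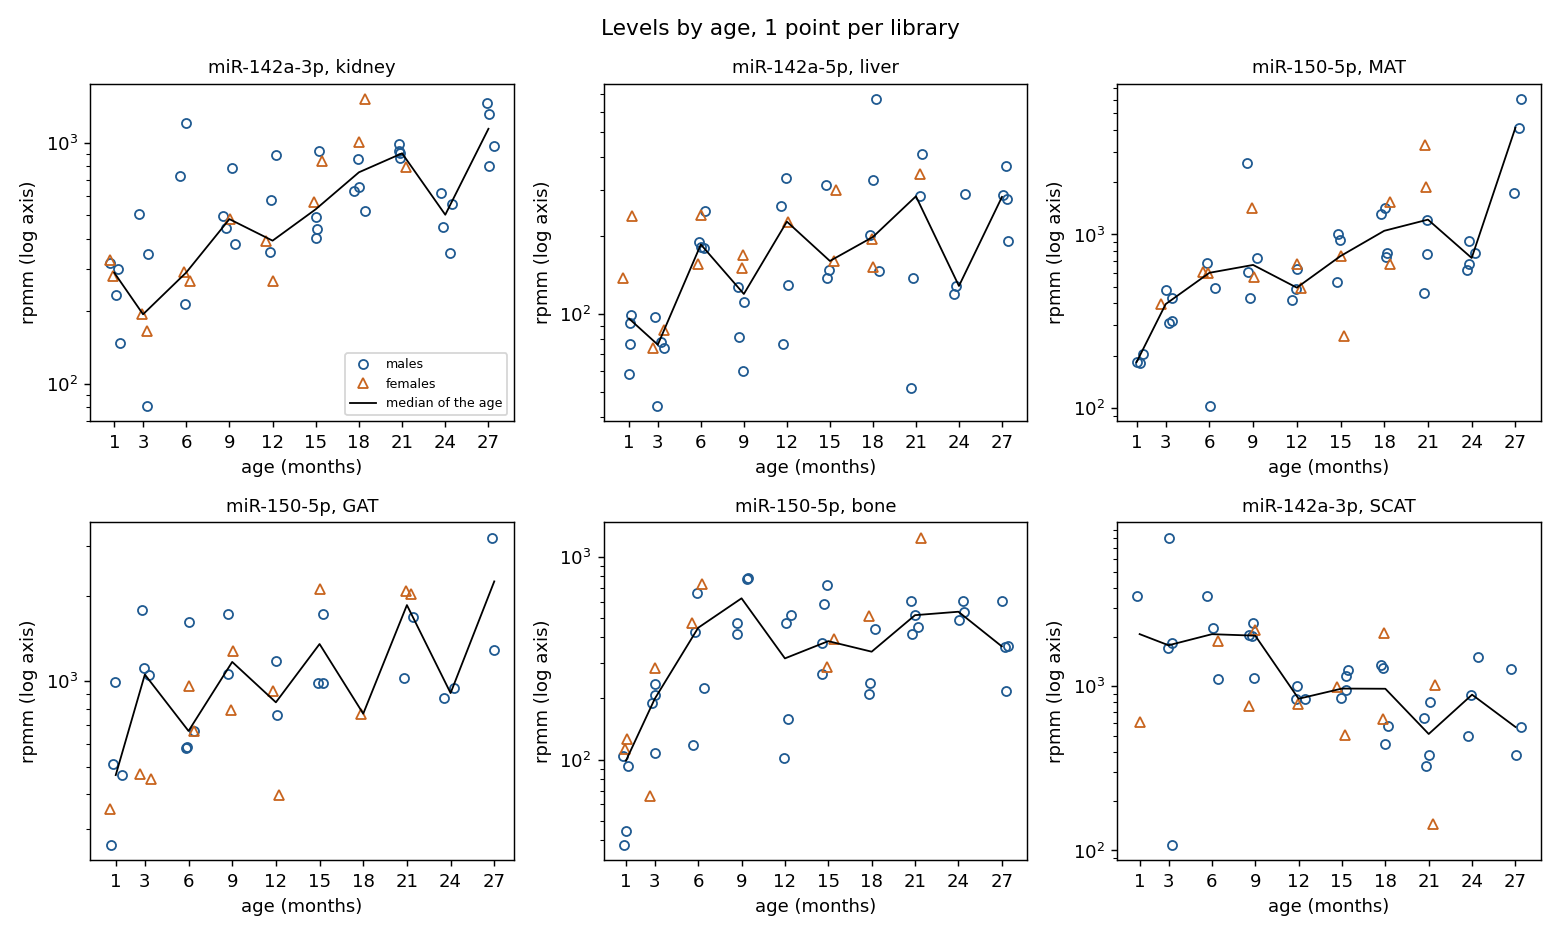
Level in rpmm (log axis) against age in months, 1 point per library (circles males, triangles females) with a line through the median of each age, for miR-142a-3p in kidney and SCAT, miR-142a-5p in liver and miR-150-5p in MAT, GAT and bone. Medians were higher at 21 than at 3 months in every panel but SCAT, and in kidney, liver and MAT the 24-month median lay below those of 21 and 27 months.

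In marrow both miR-181 members, and in spleen miR-181a-5p, correlated negatively with age by the permutation test, short of the threshold on rho. In marrow rho was -0.42 (adjusted permutation p = 0.013, n = 56) for miR-181a-5p and -0.42 (adjusted permutation p = 0.013, n = 56) for miR-181b-5p, and in spleen -0.40 (adjusted permutation p = 0.018, n = 55) for miR-181a-5p. The marrow medians of miR-181a-5p were 8976 rpmm at 1 month, 5096 rpmm at 3 months and 3267 rpmm at 27 months, and without the 1-month libraries rho was -0.19 there and -0.21 in spleen. miR-142a-3p, by contrast, had rho -0.01 in marrow and 0.08 in spleen. Skin miR-181b-5p (-0.39, adjusted permutation p = 0.042, n = 47) reached -0.61 relative to miRNA reads.

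Whether the slope with age differs between tissues was tested directly, by the tissue by age interaction in limma over all libraries. Several organs came from each mouse, but the model took every library as independent, so its p-values are uncertain to that extent. It passed for 5 of 6 members, where 59.7% of all miRNAs passed: miR-142a-3p (F = 5.23, adjusted p = 3.1e-09), miR-150-5p (F = 4.35, adjusted p = 3.4e-07), miR-142a-5p (F = 3.68, adjusted p = 1.1e-05), miR-223-3p (F = 3.34, adjusted p = 5.9e-05) and miR-181a-5p (F = 1.86, adjusted p = 0.041). miR-181b-5p did not pass (adjusted p = 0.14). miR-181a-5p no longer passed in males (adjusted p = 0.25), without libraries closest to another tissue (0.061) or without the 1-month libraries (0.43), and miR-181b-5p passed relative to miRNA reads (0.017), with median-ratio scaling (0.00099) and without the 24- and 27-month libraries (0.018). Slopes of miR-142a-3p ran from 0.091 log2 units per month in BAT and 0.074 in kidney to -0.067 in SCAT.

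Over all later ages, 22 of 684 comparisons of a member with 3 months passed (21 higher, 1 lower), near the 2.76% of all miRNAs. Relative to miRNA reads the split was 9 higher and 10 lower, and with median-ratio scaling 9 higher and 7 lower. The comparison of 21 against 3 months passed in 4 of 84 pairs, all higher and all named above, beside 3.86% of all pairs. Relative to miRNA reads this became 1 higher and 7 lower, and with median-ratio scaling 2 higher and 2 lower. The 7 were all 6 members in limb muscle and miR-181a-5p in bone. The shares over all pairs given here are of the rpmm values, and none is given for the other scalings. In limb muscle the median log2 change of all miRNAs at 21 months was -0.60 relative to miRNA reads and -0.42 in rpmm. Limb muscle held the 1 lower call of the rpmm values, miR-142a-3p at 15 months, with 14.9, 23.8, 88.6, 117 and 177 rpmm against 114 to 333 rpmm around a median of 180.5 rpmm at 3 months, groups that overlapped (-1.72 ± 0.49 SE, adjusted p = 0.0075), and was lost without replicate 22 or 33 of 15 months. Lung miR-142a-3p was higher at 24 months, at 7691, 9259.6, 15504 and 15566 rpmm against 1905 to 6528 rpmm around a median of 3102 rpmm, without overlap (1.83 ± 0.51 SE, adjusted p = 0.030), and was lost without any 1 of 6 libraries. Pancreas miR-142a-5p passed at 12 months (2.19 ± 0.61 SE, adjusted p = 0.046) and 15 months (2.26 ± 0.57 SE, adjusted p = 0.035), and both were lost without replicate 02 of 3 months (adjusted p = 0.16 and 0.15), the library with the lowest miRNA share of the series, as without 8 and 5 others. The 12-month call fell short in all 12 alternative settings, and the 15-month call in 8 of 12. Among pairs that did not pass, the greatest changes were those of miR-142a-5p in spleen, 2.36 ± 0.85 (SE, adjusted p = 0.24) at 12 months and 2.01 ± 0.85 (SE, adjusted p = 0.22) at 21 months, of miR-142a-5p in MAT, 1.76 ± 0.75 (SE, adjusted p = 0.15) at 15 months and 1.75 ± 0.75 (SE, adjusted p = 0.21) at 21 months, and of miR-223-3p in kidney, 2.24 ± 0.61 (SE, adjusted p = 0.069) at 21 months.

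Between 1 and 3 months, that is during maturation, 1 of 84 pairs passed (1.76% of all pairs). Relative to miRNA reads 3 were higher and 1 lower at 1 month. miR-150-5p in limb muscle held 38.8, 129, 150.2 and 187 rpmm in the 4 libraries of 1 month and 287 to 862 rpmm around a median of 399 rpmm in the 6 of 3 months, without overlap, a log2 change of -1.97 ± 0.47 (SE, adjusted p = 0.0082). edgeR on the recovered reads gave -1.87 (adjusted p = 0.060) for it. Short of the threshold were miR-142a-5p in spleen (2.14 ± 0.85 SE, adjusted p = 0.16), MAT (1.04 ± 0.87 SE, adjusted p = 0.40) and limb muscle (-1.48 ± 0.54 SE, adjusted p = 0.080).

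The sexes were compared over 1 to 21 months, with each age as a level of its own in the model. 3 of 96 pairs passed, all lower in males, where 4.48% of all pairs passed. With median-ratio scaling 2 were higher and 3 lower in males. Liver miR-223-3p was 85.2 rpmm at the median of 31 male libraries (27.7 to 178) and 152 rpmm in 14 female libraries (70.0 to 273), a log2 change of -0.76 ± 0.21 (SE, adjusted p = 0.013). In skin, miR-150-5p was 107 rpmm in 28 male and 190.1 rpmm in 13 female libraries (-0.87 ± 0.23 SE, adjusted p = 0.0026), and miR-142a-3p 449 and 580.2 rpmm (-0.61 ± 0.20 SE, adjusted p = 0.019). Male and female libraries overlapped in all 3 pairs. Both skin calls were on the same libraries, and skin miR-142a-3p was lost without replicate 52 of 6 months or replicate 27 of 15 months (adjusted p up to 0.054). With the set as a covariate, a block of consecutive replicate numbers and not a recorded batch, the call of miR-150-5p in skin was left. Short of the threshold were miR-223-3p in bone (1.32 ± 0.40 SE, adjusted p = 0.15), miR-150-5p in BAT (0.96 ± 0.67 SE, adjusted p = 0.78) and miR-142a-5p in pancreas (-0.61 ± 0.31 SE, adjusted p = 0.97).

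Other miRNAs of the blood were read beside the members, from lists drawn up for this tissue panel with earlier results known. Of the 8 immune cell miRNAs, 13 of 116 pairs were above 0.5 with age and 2 below -0.5. miR-155-5p, which is induced on activation of lymphocytes and macrophages, led them, at rho 0.85 in GAT, 0.79 in lung, 0.73 in MAT, 0.67 in liver, 0.66 in bone and 0.61 in marrow. miR-146a-5p, a brake on NF-κB signalling, was called in GAT (0.69), MAT (0.66) and bone (0.55), and miR-147-3p in kidney (0.63), MAT (0.60) and liver (0.54). Of the 4 red cell miRNAs 0 of 60 pairs were past 0.5 in either direction, with 5 at an unadjusted permutation p under 0.05 and 3 by adjusted p (1 higher, 2 lower), and of the endothelial arms of miR-126a 1 of 32. The opposite arms and family copies gave 3 of 96 above 0.5, miR-150-3p in MAT (0.58) and bone (0.57), where miR-150-5p was also called, and miR-223-5p in GAT (0.56). A further 4 were below -0.5, all of the miR-181 family: miR-181a-1-3p (-0.63) and miR-181c-3p (-0.60) in limb muscle, miR-181c-5p in lung (-0.56) and miR-181c-3p in spleen (-0.51).

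The parabiosis cohort asked whether exposure to a partner of another age changes these levels. In the reference, isochronic aged against isochronic young mice, 6 of 36 pairs passed, 4 higher and 2 lower, beside 8.13% of all pairs. Relative to miRNA reads 4 were higher and 1 lower. Kidney mmu-miR-142a-3p was higher in aged mice, with 663 to 1628 rpmm around a median of 1183 rpmm in 8 IA mice and 285 to 859 rpmm around a median of 444 rpmm in 8 IY mice, overlapping groups (log2 change 1.14 ± 0.23 SE, adjusted p = 0.0040). Kidney mmu-miR-142a-5p (0.90 ± 0.27 SE, adjusted p = 0.046) and mmu-miR-150-5p (0.77 ± 0.21 SE, adjusted p = 0.033) passed as well, the first lost without any 1 of 12 of the 16 mice and the other without any 1 of 9, and neither passed with the pair as a replicate block (adjusted p = 0.069 and 0.056). In heart mmu-miR-142a-3p was higher, with 306 to 557 rpmm around a median of 424 rpmm in IA and 144 to 405 rpmm around a median of 262 rpmm in IY (0.77 ± 0.18 SE, adjusted p = 0.011), whereas mmu-miR-181a-5p was lower, with 1711 to 2949 rpmm around a median of 2228 rpmm against 2473 to 4308 rpmm around a median of 3734 rpmm (-0.60 ± 0.15 SE, adjusted p = 0.011), and mmu-miR-181b-5p followed it (-0.56 ± 0.17 SE, adjusted p = 0.026). In each of these heart comparisons the groups overlapped, and that of mmu-miR-181b-5p was lost without any 1 of 5 mice. Short of the threshold were mmu-miR-181a-5p in MAT (-0.65 ± 0.27 SE, adjusted p = 0.14) and mmu-miR-150-5p in liver (0.50 ± 0.39 SE, adjusted p = 1.00).

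Between the partners of heterochronic pairs, HA against HY, 5 of 36 pairs passed, all higher in the aged partner, beside 9.81% of all pairs. 4 of the 5 were in kidney, where 22.7% of all miRNAs passed. mmu-miR-223-3p held 117, 143, 189, 238, 310.1 and 325 rpmm in the 6 HA kidneys and 71.2, 74.7, 75.5, 80.9, 82.8, 83.6 and 94.9 rpmm in the 7 HY kidneys, without overlap (1.35 ± 0.24 SE, adjusted p = 0.00014). mmu-miR-142a-3p held 651, 781, 1007, 1008, 1732 and 1769 rpmm in HA and 308, 381, 499, 513, 527, 553 and 622 rpmm in HY, again without overlap (1.18 ± 0.26 SE, adjusted p = 0.0014). mmu-miR-142a-5p (1.04 ± 0.30 SE, adjusted p = 0.011) and mmu-miR-150-5p (0.68 ± 0.23 SE, adjusted p = 0.030) passed with overlapping groups, the latter lost without any 1 of 5 mice. In heart mmu-miR-150-5p was higher, with 369.8 to 1601 rpmm around a median of 765 rpmm in HA and 296 to 749 rpmm around a median of 363 rpmm in HY (0.87 ± 0.27 SE, adjusted p = 0.022), and was lost without HA mouse 1A, 2A or 14A (adjusted p up to 0.080). Short of the threshold were mmu-miR-142a-5p in GAT (1.30 ± 0.36 SE, adjusted p = 0.10) and mmu-miR-150-5p in liver (0.44 ± 0.42 SE, adjusted p = 0.54). The kidney median of all miRNAs moved by -0.025 in this comparison. The summed red cell miRNAs of kidney ranged over 264 to 3609 rpmm in HA and 203 to 2223 rpmm in HY, and their part in the result was not tested.

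Of the other immune cell miRNAs, 8 of 42 pairs passed in HA against HY and 4 of 42 in IA against IY, all higher, 2 of 42 in HA against IA, both higher, and 0 of 42 in HY against IY, by limma, with 2 there at an unadjusted p under 0.05. In kidney, 5 of the 8 miRNAs on the list were higher in HA than in HY kidneys, namely mmu-miR-147-3p (2.09 ± 0.21 on the log2 scale, SE), mmu-miR-511-3p (1.69 ± 0.22), which lies in the macrophage mannose receptor gene, mmu-miR-146b-5p (1.46 ± 0.28), mmu-miR-342-5p (0.95 ± 0.20) and mmu-miR-342-3p (0.83 ± 0.21), and mmu-miR-223-5p, the other arm of miR-223, rose by 1.07 ± 0.17, each with an adjusted p under 0.05 by limma. Of all miRNAs tested in kidney in this comparison, 13.8% passed with the higher level in HA. Of the red cell miRNAs 0 of 23 pairs passed by limma in any of these 4 comparisons, with 4 at an unadjusted p under 0.05 in IA against IY, 4 in HA against HY, 1 in HA against IA and 0 in HY against IY. Of the opposite arms and family copies, 7 of 37 passed in IA against IY and 5 of 37 in HA against HY. In limb muscle the members did not pass in either comparison of old with young mice, whereas family copies did: mmu-miR-181c-5p fell by 0.82 ± 0.13 and mmu-miR-181a-1-3p by 0.68 ± 0.16 in IA against IY, and by 0.62 ± 0.14 and 0.68 ± 0.17 in HA against HY. mmu-miR-181a-5p itself changed by -0.33 ± 0.13 (SE, adjusted p = 0.12) in limb muscle in HA against HY, which did not pass. In the aging cohort mmu-miR-181c-5p (-1.70 ± 0.45) and mmu-miR-181a-1-3p (-1.44 ± 0.32) also fell in limb muscle between 3 and 21 months.

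Old partners of young mice were then compared with old partners of old mice. In HA against IA 0 of 36 pairs passed by limma, with 6 at an unadjusted p under 0.05 and 2 by edgeR, beside 0.965% of all pairs. The greatest change was in GAT, where mmu-miR-223-3p held 121 to 2498 rpmm around a median of 895 rpmm in HA and 109 to 448 rpmm around a median of 327 rpmm in IA (1.31 ± 0.41 SE, adjusted p = 0.069), and mmu-miR-142a-5p 105 to 866 rpmm around a median of 604 rpmm and 122 to 344 rpmm around a median of 259.7 rpmm (1.07 ± 0.35 SE, adjusted p = 0.070). In both, HA mice 1A and 20A were the lowest of the 7, within or near the range of the IA mice, and the groups overlapped. Without 1A 3 of 36 pairs passed, and without 20A 2 did. With the pair as a replicate block GAT mmu-miR-223-3p passed (1.31, adjusted p = 0.047). Kidney mmu-miR-223-3p changed by 0.78 ± 0.23 (SE, adjusted p = 0.094). In HY against IY 0 of 36 pairs passed, by limma or by edgeR, and by limma 0% of all pairs passed. At an unadjusted p under 0.05 by limma there were 2 of 36, beside 155 of 3211 over all miRNAs. The greatest changes were those of mmu-miR-142a-3p in heart (0.55 ± 0.19 SE, adjusted p = 0.55) and mmu-miR-150-5p in GAT (-0.54 ± 0.46 SE, adjusted p = 0.82), and kidney mmu-miR-142a-3p changed by -0.044 ± 0.24 (SE, adjusted p = 1.00). A p that misses the threshold does not show that the groups were alike.

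The cohorts can be read side by side in kidney, since they share no samples. The log2 change of miR-142a-3p was 1.91 at 18 against 3 months in the aging cohort, 1.14 in IA against IY and 1.18 in HA against HY. The median log2 change of all miRNAs in the same comparisons was 0.60, 0.014 and -0.025, so the sizes are not directly comparable. Over 12 alternative settings the 18-month change was as low as 0.97 (adjusted p by limma or edgeR up to 0.90) and kept its call in 8. Both parabiosis calls of miR-142a-3p held in all 12. For miR-223-3p the log2 changes were 1.77, 0.33 and 1.35, and only the last passed. For miR-150-5p both parabiosis values passed, whereas that of 18 against 3 months did not (adjusted p = 0.23). In liver, where miR-142a-5p rose in the aging cohort, it changed by 0.18 ± 0.31 (SE, adjusted p = 1.00) in IA against IY, and in MAT miR-150-5p changed by -0.007 ± 0.83 (SE, adjusted p = 1.00), neither past the threshold. Without the MAT libraries closest to GAT the latter was -0.23 (adjusted p = 0.90), and that of miR-181a-5p in MAT was -0.65 (adjusted p = 0.38).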

How the data were processed

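Small RNA was sequenced single-end in the aging and parabiosis cohorts. Values were deposited by the authors as a signal, reads scaled to 1 M mapped reads per library (rpmm), made with miRMaster and Bowtie at 1 mismatch against miRBase and other databases, with libraries under 2 M aligned reads left out and 1 paralog kept of each RNA. The labels name the build mm10. 2 small intestine columns, which the deposited annotation pairs with libraries of another age than their names give, were not used. Reads were recovered by dividing by the value of 1 read, and within 0.05 reads 99.0% (aging) and 98.8% (parabiosis) of miRNA values came out whole.

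The members and lists were chosen with earlier results of these data known. miRNAs of at least 1 rpmm in at least 10% of a tissue's libraries were kept, and values were tested as log2(rpmm + 1), which understates changes of low miRNAs, with limma 3.58.1 (R 4.3.3, eBayes with trend), adjusted by Benjamini-Hochberg within tissue and contrast at 0.05. Age was a factor, and each age was compared with 3 months where both had at least 3 libraries. Correlations with age used 100000 two-sided shuffles (smallest p 1e-05). Alternatives were edgeR 4.0.16 on recovered reads, a pseudocount of 0.1 or 10 rpmm, and no filter or a mean of at least 10 rpmm. Others were scaling to miRNA reads or by median ratios, males only, plate, set or pool, and pairs as blocks. The plate is that of the deposited annotation, which does not name the step it belongs to. A set is a block of consecutive replicate numbers of a tissue, defined here and not a recorded batch. Left out in turn were pairs 19 and 20, libraries closest to another tissue, those of low miRNA share, and single libraries. The sample annotation sets the aged mice of pairs 19 and 20 apart by substrain, C57BL/6JN against C57BL/6J. Another source of the study gives these the other way round. The settings on low miRNA share and on the pool were chosen after seeing the data. The tests were tested on simulated data. Given in full were, per comparison, up to 8 called pairs of greatest effect and the greatest uncalled one in blood-forming, adipose and other tissues, with further pairs chosen after their values were seen. For likeness the 3 miRNAs of highest r were named. Joined mice share a pair number in their titles, so the pair was used as a block in an alternative. The main fit took joined mice as independent, although the IA mice, for 1, came from 4 pairs. The deviations of partners correlated with a median r of 0.030 over 86 pairs, 38 of them above 0.1. That median covers unlike tissues, with medians of -0.45 in MAT, -0.32 in GAT, 0.052 in kidney, 0.16 in heart, 0.18 in limb muscle and 0.31 in liver. The study's methods describe the aging replicates of a tissue as separate mice. Organs of the same mouse were not matched in the tests across tissues. The full strain name of the HY mice is not reported here.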

Additional observations from a re-analysis of the deposited data

Results flagged for a closer look

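3 of 56 groups of 4 to 10 libraries held 1 library far from the rest, where chance gives about 1 in 20. In bone at 21 months, replicate 37 held 1241 rpmm of miR-150-5p against 417 to 608 rpmm in the other 4, and this library was closest to SCAT by its miRNA profile. In limb muscle at 3 months, replicate 11 held 862 rpmm of miR-150-5p against 287 to 503 rpmm in the other 5. In liver at 18 months, replicate 44 held 671 rpmm of miR-142a-5p against 147 to 329 rpmm in the other 5.

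The slope with age differed between tissues for 5 members by the interaction test in limma, with F = 5.23 for miR-142a-3p, 4.35 for miR-150-5p, 3.68 for miR-142a-5p, 3.34 for miR-223-3p and 1.86 for miR-181a-5p, the last of which did not pass in males, without the 1-month libraries or without libraries closest to another tissue. For miR-142a-3p the slopes were positive in kidney, MAT and BAT and negative in SCAT, and their cause was not tested.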

How the results depend on the processing

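None of the 47 named results changed sign in 547 alternative values, of which 428 kept their side of the threshold and 119 fell short of it, most often relative to miRNA reads (21 of 47) and with median-ratio scaling (19 of 47). These results were named because they passed in the main setting, so a change of sign was unlikely. The settings on the filter could not alter their rho with age. The age correlation count of 10 became 5 with plate means removed and 25 by adjusted p. The 21 against 3 months count of 4 became 8 relative to miRNA reads, 7 without libraries closest to another tissue, 7 by edgeR and 0 in males only. The 1 against 3 months count of 1 became 4 relative to miRNA reads, 2 with median-ratio scaling, 2 with plate as a covariate and 0 by edgeR. The males against females count of 3 became 5 with median-ratio scaling, 5 without libraries closest to another tissue and 1 with set as a covariate. The HA against IA count of 0 became 2 relative to miRNA reads, 2 with median-ratio scaling, 2 by edgeR, 2 without pairs 19 and 20 and 1 with the replicate block, and the replicate block gave 4 of 6 calls in IA against IY and 5 of 5 in HA against HY. The later ages against 3 months split of 21 higher and 1 lower became 9 and 10 relative to miRNA reads, 9 and 7 with median-ratio scaling and 15 and 14 without libraries closest to another tissue. The cause was not tested. Shares over all pairs are given for the main setting only, so none stands beside these alternative counts. Leaving out single libraries gave 1 to 3 calls for 1 against 3 months (3 without kidney replicate 09 of 1 month), 3 to 8 for 21 against 3 months (8 without SCAT replicate 16 of 3 months, 7 without kidney replicate 23 or 47 of 3 months), 18 to 33 for later ages, 2 to 5 for males against females (5 without bone replicate 18 or SCAT replicate 16 of 3 months), 4 to 8 for HA against HY and 0 to 3 for HA against IA (8 and 3 without GAT mouse 1A), 4 to 7 for IA against IY and 0 for HY against IY. Plate was not used in the parabiosis cohort, for which only the pool was at hand. Groups of 1 to 6 aging libraries, and 3-month groups that every later age shares, limit precision.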
